A study of Homo sapiens with 6 samples.

Results

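The EGR and NR4A immediate early transcription factors were followed, with the NAB corepressors of EGR proteins and with SRF, in SK-OV3 cells after silencing of the lncRNA PVT1. The members were selected by gene symbol, as the rows named EGR1, EGR2, EGR3, EGR4, NAB1, NAB2, NR4A1, NR4A2, NR4A3 or SRF, and gave 10 of the 59653 genes in the table. They form gene families, but these families were chosen on results of the same comparison that were already known, among them the low level of EGR1 in siPVT1. The differences between the groups below are therefore a description, and the numbers of members past a threshold support nothing further. SK-OV3 is an ovarian cancer cell line, labelled wildtype in all samples, that does not express p53 according to the study. RNA was taken 48 h after transfection with 50 nM siRNA in full serum, from cells given a pool of siRNAs against PVT1 (siPVT1, 3 libraries) or a pool of non-targeting siRNAs (siControl, 3 libraries). A single pool against PVT1 was sequenced in a single cell line, so effects of lowering PVT1 and other effects of the pool cannot be told apart. The labels do not say whether replicates came from separate cultures, and the errors measure only the spread between these libraries, which may be technical.

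Immediate early genes are transcribed within minutes of a stimulus such as serum, without new protein synthesis. SRF, together with its ETS partners such as ELK1, binds the CArG box of the serum response element and switches these genes on when the ERK kinases are active, and CREB acts through cAMP response elements (CRE). EGR1 to EGR4 are zinc finger factors that bind GC-rich sites, and NAB1 and NAB2 bind EGR proteins such as EGR1 and repress their targets. NR4A1 (NUR77), NR4A2 (NURR1) and NR4A3 (NOR1) are orphan nuclear receptors that bind DNA as monomers. NR4A1 and NR4A2 also bind DNA with RXR as a partner.

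The start regions of the members differ in the elements they hold, and stretches with a CArG box or the CRE core are shown because these are the elements through which SRF and CREB act. RefSeq promoter windows, from 250 bases before to 50 bases after a start on GRCh38.p14, were found for 8 of the 10 genes, in 14 windows, and not for EGR3 and NR4A2. A CArG box, searched on both strands, stood in the windows of EGR1, EGR2 and SRF, in 3 of the 14 windows, against 1.29% of all 35116 windows. In the stretches below, capitals mark CArG boxes and the CRE core TGACGT, which reads ACGTCA on the other strand. The stretches end at the base before the start in EGR1 and SRF, and the stretch of EGR2 belongs to the last of its 3 listed starts.
EGR1, chr5:138465329-138465478, plus strand: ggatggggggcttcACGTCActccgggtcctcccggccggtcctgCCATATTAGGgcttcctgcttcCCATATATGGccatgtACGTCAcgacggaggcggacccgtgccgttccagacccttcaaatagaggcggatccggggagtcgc
EGR2, chr10:62816412-62816441, minus strand: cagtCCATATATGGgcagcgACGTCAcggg
EGR4, chr2:73293649-73293678, minus strand: gtgtccatgtttgggcatttACGTCAcggc
SRF, chr6:43171239-43171268, plus strand: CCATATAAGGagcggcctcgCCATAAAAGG
NR4A3, chr9:99821773-99821809, plus strand: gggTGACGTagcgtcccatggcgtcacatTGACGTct
In EGR1 and EGR2 a CArG box was followed after 6 bases by the CRE core ACGTCA. Of the 35116 windows, 2 held this arrangement, those of EGR1 and EGR2, and 5 held it with a gap of 0 to 20 bases. The gap of 6 bases was read off these genes, so the count describes how rare it was and tests nothing. In the EGR4 stretch the 10 bases that end 6 bases before the core differed from a CArG box in 1 letter. The 150 bases of EGR1 and the stretches of EGR2, SRF and NR4A3 overlapped no exon of GENCODE v44, and that of EGR4 lay in an EGR4 exon.

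The CRE core TGACGT stood in windows of EGR1, EGR2, EGR4, NAB1 and NR4A3, in 5 of 14 against 7.98% of all windows, with 3 copies before the start of NR4A3, of which 2 are in the stretch shown. The EGR motif, GCGTGGGCG or GCGGGGGCG, stood in windows of NAB1, NAB2 and SRF, in 4 of 14 against 5.77%. Overlapping windows of NAB1 hold the same 3 matches, 2 of which overlap each other, and no match overlapped another motif. The NR4A motif AAAGGTCA was in no window of the members and in 1.22% of all windows. For NR4A1 neither of its windows held any of these motifs, which says only that the letters were not there.

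**Figure D1:**
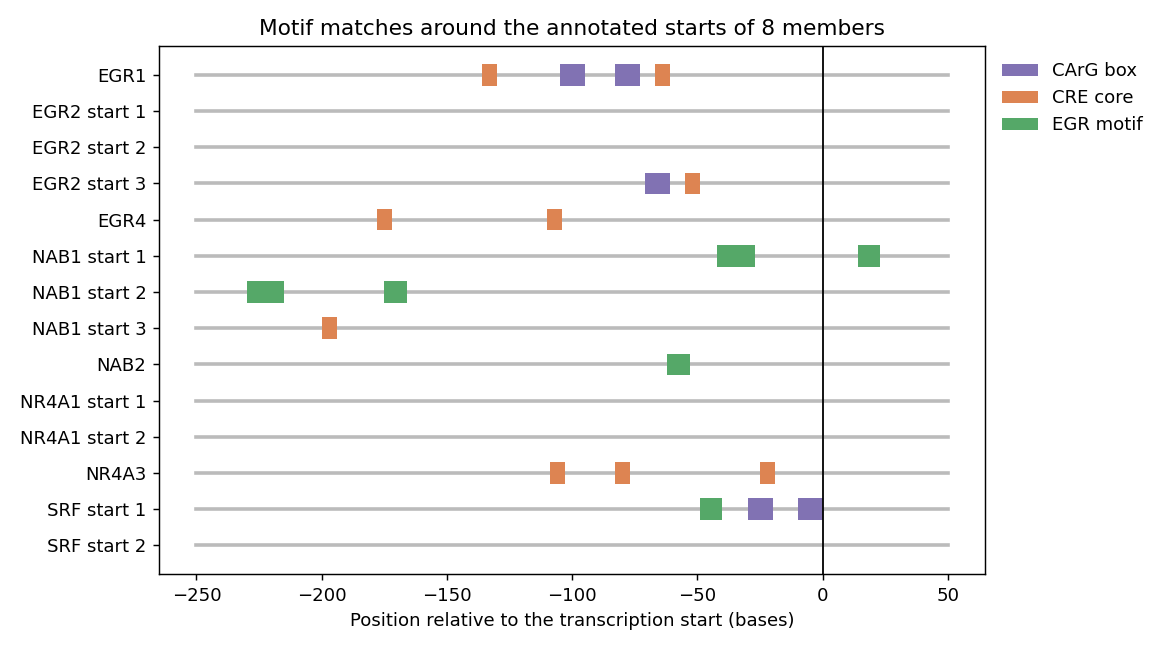
Matches to the CArG box, the CRE core (TGACGT) and the EGR motif in 14 windows of 8 members, on both strands, by position relative to the annotated start in bases. CArG boxes lie in EGR1 (2), in 1 of the starts of EGR2 and in 1 of the starts of SRF (2), and both starts of NR4A1 are empty.

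The 6 libraries held from 28383171 to 35059576 counts, and 19008 genes were tested. Values are counts as deposited, scaled to a common library size (normalized counts), and a gene is called lower or higher at a Benjamini-Hochberg adjusted p under 0.05 in edgeR's quasi-likelihood test over all 19008 genes and a log2 fold change of at least 1 in size. PVT1 was at 3298, 4090 and 3377 normalized counts in siControl and 2350, 2111 and 2062 in siPVT1, lower in every siPVT1 library. Its log2 fold change was −0.72 (standard error 0.0967), short of the fold threshold, so that PVT1 itself was not called. The 8 epithelial and ovarian markers summed to between 26790 and 30050 normalized counts in siControl and between 32820 and 36490 in siPVT1. Of the 8, 1 was called higher and 0 lower, against 11.8% and 9.64% of all tested genes. EPCAM was low, at 96.65 ± 31.3 and 66.55 ± 35.4 (SD, n = 3 each). By the adjusted p alone 4 of the 8 were higher and 2 lower, KRT7 (−0.51) and ERBB2 (−0.43). Over all tested genes these shares were 29.5% and 28.4%. MUC16 varied widely in siPVT1, at 199.3, 634.8 and 17.85 normalized counts. Of the immune markers, PTPRC and CD3E had at most 3 counts in every library, CD14 was called lower from at most 10 counts by edgeR and not by DESeq2, and the sum, nearly all of it CD68, lay between 555.6 and 616.1 in siControl and between 583.5 and 894.2 in siPVT1. All 3 endothelial markers were called higher in siPVT1, against 11.8% of all tested genes. Their sum went from between 2046 and 2072 to between 8608 and 10880 normalized counts, almost all of it CDH5. For the 4 fibroblast markers the sum went from between 210.5 and 220.2 to between 796.8 and 833.7. Of these, 2 were called higher, against 11.8% of all tested genes, and COL3A1 was at or under 3 counts throughout. LUM went the other way, from 15.92 ± 7.64 to 7.231 ± 5.09 normalized counts (SD, n = 3 each), and was not called. The titles of all 6 samples name SK-OV3 cells and no other cell type. The part of these markers in the results below was not tested. In bulk RNA, a change in the share of cells with a transcript and a change per cell cannot be told apart.

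EGR1, EGR2 and NR4A2 were called lower in siPVT1, and 0 members were called higher. These are 3 of the 9 members that passed the filter on low counts, where 9.64% of all tested genes were called lower and 11.8% higher. By the adjusted p alone, SRF and EGR3 were also lower, which made 5 lower members (28.4% of all genes), and NAB1, NAB2, NR4A1 and NR4A3 were higher, 4 in all (29.5% of all genes). The same 4 were higher at an unadjusted p under 0.05, and DESeq2 also called 0 members higher. The share of all genes at the unadjusted p, which is used again below, was not computed. The adjusted p-values of the 9 members ran from 1.54e-07 to 0.0155. In each of the 9 the libraries of the groups did not overlap, 5 with every siPVT1 library below and 4 with every siPVT1 library above siControl, as in 32.3% and 33.2% of all tested genes. EGR4 had 0 counts in all 6 libraries, a level that still allows up to 3 counts per library, or 0.106 CPM in the shallowest.

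**Figure D2:**
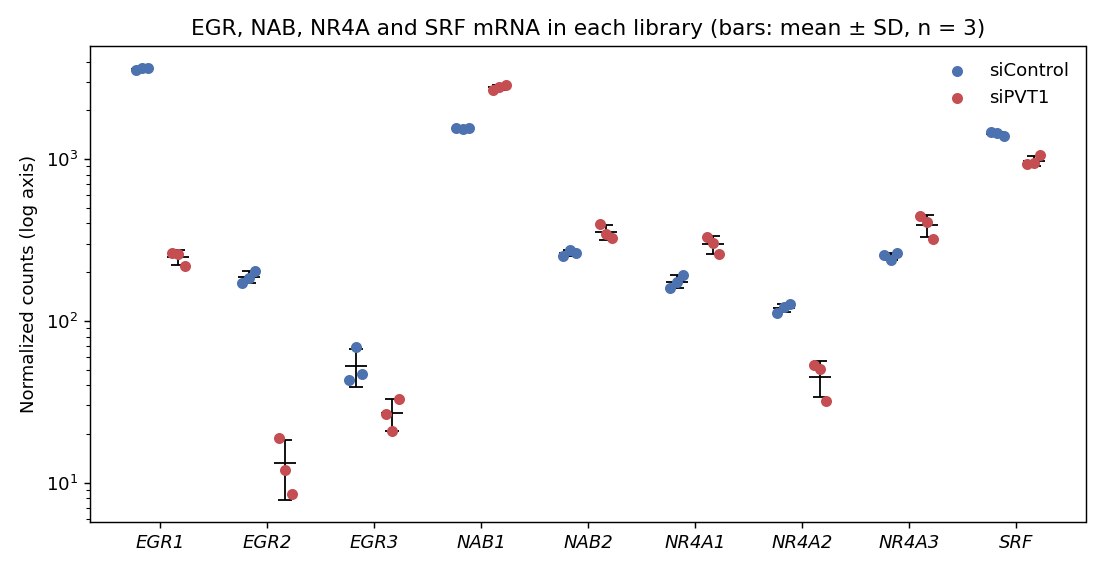
Normalized counts (log axis) of the 9 expressed members in each of the 6 libraries, with the mean and SD of each group (n = 3). EGR1 goes from at least 3528 to at most 263.9. EGR2, EGR3, NR4A2 and SRF also lie lower in siPVT1, and NAB1, NAB2, NR4A1 and NR4A3 lie higher.

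EGR1, the most abundant of its family and the factor usually taken as the readout of ERK signalling, lies on chromosome 5 from 138465479 to 138469303 (GRCh38). It was at 3528, 3643 and 3647 normalized counts in siControl replicates 1, 2 and 3 and at 263.9, 259 and 218 in siPVT1 replicates 1, 2 and 3. The siControl libraries had a coefficient of variation of 1.87%, and all siPVT1 libraries were far below them. The log2 fold change was −3.87 (standard error 0.087), a level 14.6-fold lower, and it was the 7th gene of 19008 by p-value. Without any 1 library it stayed between −3.94 and −3.80.

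EGR2 (KROX20), known for its part in hindbrain patterning and in myelination, lies on chromosome 10 from 62811996 to 62819167. Its normalized counts were 172.4, 184.9 and 204.1 in siControl and 18.93, 12.02 and 8.457 in siPVT1. The groups were far apart, although the siPVT1 values rest on only 17, 11 and 9 counts. The log2 fold change of −3.84 (standard error 0.239), 14.3-fold lower, was close to that of EGR1. The ratio of EGR1 to EGR2, with each level divided by the length of its canonical transcript, was 18.4 ± 1.23 in siControl and 19.4 ± 5.73 in siPVT1 (SD, n = 3 each), so that it moved by less than the spread within siPVT1.

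EGR3, a factor of muscle spindles and T cells, lies on chromosome 8 from 22687659 to 22693480 and was the lowest expressed of the EGR genes with counts. It was at 42.85, 68.7 and 47.11 normalized counts in siControl and 26.73, 20.76 and 32.89 in siPVT1. The groups did not overlap, but the gap between the nearest libraries was small. Its log2 fold change, −0.97 (standard error 0.273), fell short of the fold threshold, and its adjusted p rested on single libraries. Leaving out siControl replicate 2 gave −0.74 (adjusted p = 0.0525 in edgeR's quasi-likelihood test) and leaving out siPVT1 replicate 2 gave −0.84 (adjusted p = 0.0583 in the same test), while without siPVT1 replicate 3 it was −1.17 and called lower. EGR4, from 73290929 to 73293701 on chromosome 2, was not detected at this depth.

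Per kb of canonical transcript, the EGR genes summed to 1192, 1239 and 1241 normalized counts in siControl and to 96.41, 91.18 and 79.61 in siPVT1. EGR1 made up 93.9% ± 0.361 of this sum in siControl and 88.4% ± 1.85 in siPVT1 (SD, n = 3 each). The share of EGR2 was 5.13% ± 0.35 and 4.86% ± 1.56, and that of EGR3 went from 0.956% ± 0.239 to 6.78% ± 2.13. EGR1 was the main EGR transcript in every library. In siPVT1 EGR2 was at 6.355, 4.035 and 2.839 and EGR3 at 5.921, 4.599 and 7.285 normalized counts per kb in replicates 1, 2 and 3, and their ranges overlapped.

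The NAB corepressors were higher in siPVT1 by the adjusted p, while EGR1, EGR2 and, less firmly, EGR3 were lower. NAB1, on chromosome 2 from 190646746 to 190692766, was at 1561, 1523 and 1561 normalized counts in siControl and 2653, 2788 and 2870 in siPVT1. All siPVT1 libraries were higher by far more than the spread of either group, with a log2 fold change of 0.84 (standard error 0.0589), below the fold threshold. NAB2, known as an EGR1 target that closes a feedback loop, lies on chromosome 12 from 57089043 to 57095476. Its normalized counts were 250.5, 273.8 and 261.4 in siControl and 396.4, 342 and 324.2 in siPVT1. The groups did not overlap, and siPVT1 replicate 1 was the highest of them. The log2 fold change was 0.43 (standard error 0.103), and over all alternatives it lay between 0.28 and 0.48. Higher NAB2 and 14.6-fold lower EGR1 thus stood side by side in the same libraries.

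Set against each other per kb, the sum of the EGR genes was 2.67, 2.77 and 2.75 times that of the NAB genes in siControl and 0.129, 0.121 and 0.104 times in siPVT1. In siControl EGR transcripts outnumbered NAB transcripts in every library, and in siPVT1 NAB transcripts outnumbered EGR transcripts in every library. This ratio does not depend on how the libraries are scaled. NAB1 took 76.6% ± 1.01 of the NAB sum in siControl and 81.2% ± 2.22 in siPVT1 (SD, n = 3 each).

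**Figure D3:**
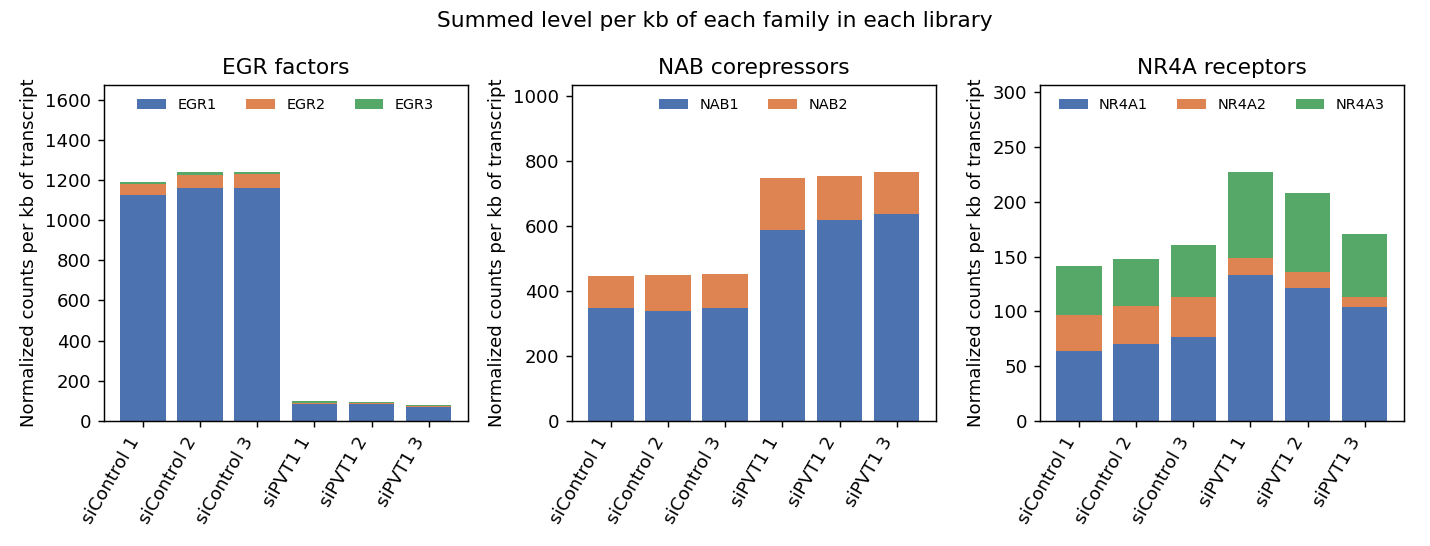
Summed levels of the EGR, NAB and NR4A genes in each of the 6 libraries, in normalized counts per kb of canonical transcript, stacked by gene. The EGR sum is at least 1192 in siControl and at most 96.41 in siPVT1, the NAB sum has means of 449 and 757, and the NR4A2 part of the NR4A bars is smaller in siPVT1 although the bars are taller.

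The NR4A receptors did not move together. NR4A2, best known from the development of dopamine neurons, lies on chromosome 2 from 156324437 to 156342348 and was at 112.4, 121.2 and 126.6 normalized counts in siControl and 53.45, 50.26 and 31.95 in siPVT1. Every siPVT1 library was at less than the lowest siControl value, with a log2 fold change of −1.42 (standard error 0.204), 2.67-fold lower.

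NR4A1, a regulator of apoptosis and metabolism, lies on chromosome 12 from 52022832 to 52059507. It was at 159, 174.8 and 191.2 normalized counts in siControl and 330.7, 301.6 and 258.4 in siPVT1. All siPVT1 libraries were higher, with a log2 fold change of 0.76 (standard error 0.125). NR4A3, on chromosome 9 from 99821855 to 99866891, was at 254.3, 236.4 and 262.3 in siControl and 442.1, 406.5 and 322.3 in siPVT1. Its log2 fold change was 0.63 (standard error 0.128), and siPVT1 replicate 3 was the lowest siPVT1 library for all 3 receptors.

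Per kb, NR4A2 made up 22.8%, 23.7% and 22.8% of the NR4A sum in siControl and 6.77%, 6.95% and 5.39% in siPVT1. NR4A1 went from 47.0% ± 1.54 to 59.2% ± 1.48 and NR4A3 from 29.9% ± 1.81 to 34.4% ± 0.608 (SD, n = 3 each). The ratio of NR4A2 to NR4A1 was 0.492 ± 0.0164 in siControl and 0.108 ± 0.0168 in siPVT1, far apart. The ratio of NR4A3 to NR4A1 was 0.639 ± 0.0608 and 0.581 ± 0.0247, and its groups nearly touched, with 0.6 as the lowest siControl and 0.598 as the highest siPVT1 library (SD, n = 3 each). The order of the receptors by level per kb was NR4A1, NR4A3 and NR4A2 in all 6 libraries.

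SRF, the factor at the serum response element, lies on chromosome 6 from 43171269 to 43181506. It was at 1459, 1451 and 1387 normalized counts in siControl and 926.5, 946.2 and 1054 in siPVT1, so that the log2 fold change was −0.55 (standard error 0.0725). All siPVT1 libraries were lower, but the change was far smaller than that of EGR1, so that the ratio of EGR1 to SRF per kb went from 3.26, 3.39 and 3.55 in siControl to 0.384, 0.369 and 0.279 in siPVT1.

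Across all members the levels per kb in siControl were, from high to low, EGR1 (1150 ± 21.5), NAB1 (343 ± 4.80), SRF (339 ± 9.25), NAB2 (105 ± 4.68), NR4A1 (70.4 ± 6.48), EGR2 (62.8 ± 5.37), NR4A3 (44.8 ± 2.37), NR4A2 (34.6 ± 2.06) and EGR3 (11.7 ± 3.07), in normalized counts per kb (SD, n = 3 each). NAB1 and SRF differed by less than their spread, and the ranges of NR4A1 and EGR2 overlapped. In siPVT1 the order began with NAB1 (615 ± 24.3), SRF (231 ± 16.3), NAB2 (142 ± 15.1) and NR4A1 (119 ± 14.6), and EGR1 came next with 78.7 ± 8.04 (SD, n = 3 each), a level whose range overlapped that of NR4A3 (69.6 ± 11).

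**Figure D4:**
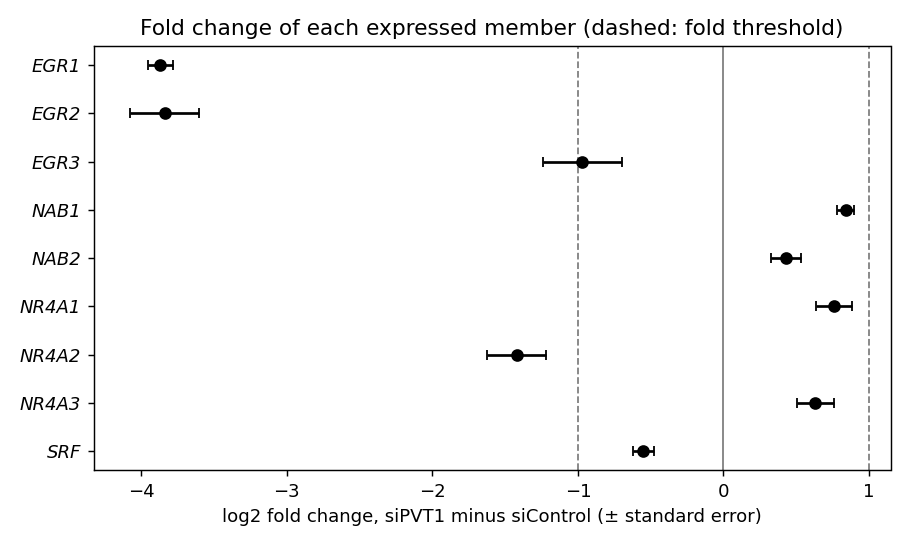
Log2 fold change (siPVT1 minus siControl) with its standard error for the 9 expressed members, with dashed lines at the fold threshold. EGR1 and EGR2 lie near −3.9, NR4A2 at −1.42, EGR3 at −0.97 and SRF at −0.55. The NAB genes, NR4A1 and NR4A3 lie between 0.43 and 0.84.

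The other genes of the pathway were taken from 7 lists of 101 genes, of which 96 were tested. Of these, 16 were called lower and 13 higher, against 9.64% and 11.8% of all tested genes. The median log2 fold change was 0.072 against 0.001 over all tested genes. Among the SRF cofactors, of which 5 of 6 were tested, 0 were called in either direction, with a median of 0.030. By edgeR's unadjusted p under 0.05, 1 was lower and 2 higher, and DESeq2 also called 0. By the adjusted p alone, 1 was lower and 1 higher, against 28.4% and 29.5% of all tested genes. MRTFA, the actin-sensing coactivator, had the largest difference of them, −0.50 (standard error 0.0817), followed by ELK4 (0.21), ELK3 (0.17) and MRTFB (−0.16). MYOCD had at most 1 count in any library.

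In the relay of ERK, RSK and MSK kinases and CREB, 1 of 18 genes was called lower and 3 higher (median 0.035). Over all tested genes, 9.64% were called lower and 11.8% higher. Higher were RPS6KA5 (MSK1), which phosphorylates CREB and histone H3 at immediate early genes, with 1.23 (standard error 0.0844), MAP2K1 (MEK1) with 1.20 (standard error 0.0624) and RPS6KA1 (RSK1) with 1.17 (standard error 0.102). CRTC1, a coactivator of CREB, was lower by the threshold at −1.01 (standard error 0.114).

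Of 24 tested immediate early genes of other families, 8 were called lower and 2 higher, with a median of −0.22. The shares over all tested genes were 9.64% lower and 11.8% higher. By the adjusted p alone, 12 were lower and 8 higher, against 28.4% and 29.5% of all tested genes. FOSB was at −4.58 (standard error 0.0863), FOS at −2.15 (standard error 0.108) and ATF3 at −1.78 (standard error 0.11), all of them basic leucine zipper factors. DUSP2, a phosphatase of ERK, had 15, 7 and 12 counts in siControl and 0, 0 and 1 in siPVT1, and was at least 3.24-fold lower against a floor of 3 counts per library. PPP1R15A (−1.48), ARC (−1.17) and MYC (−1.01) were also called lower, as was GADD45B, from 1580 ± 147 to 790.4 ± 108 normalized counts (SD, n = 3 each), and IER3 and MCL1 were called higher, at 1.39 and 1.27. Several well-known members of this class were not called, such as JUN (−0.49), JUNB (0.67), IER2 (−0.21), DUSP1 (0.20) and CCN1 (0.12). By the adjusted p alone, JUN and IER2 were lower and JUNB was higher. This list was drawn up with the low level of FOSB and EGR1 known, so its direction is not independent evidence.

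Cytoskeletal SRF targets, 16 of 18 tested, had a median of 0.039. Of them 2 were called lower and 1 higher, against 9.64% and 11.8% of all tested genes. ZYX (zyxin) was at −1.90 (standard error 0.154), FLNA (filamin A) at −1.07 (standard error 0.0749) and TPM2 (a tropomyosin) at 1.33 (standard error 0.119). By the adjusted p alone 6 were lower and 6 higher, against 28.4% and 29.5% of all tested genes. ACTB, a cytoskeletal actin, was among the lower ones with −0.68.

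Genes listed as EGR1 targets had a median of 0.905. Of the 15, 7 were called higher and 2 lower, against 11.8% and 9.64% of all tested genes. By the adjusted p alone, 11 were higher and 2 lower, against 29.5% and 28.4% of all tested genes. PTGES, the prostaglandin E synthase, was highest at 5.98 (standard error 0.351), from a mean of 6.81 normalized counts in siControl. ICAM1, an adhesion molecule, was at 3.39 (standard error 0.111), PDGFB at 2.79 (standard error 0.176), and THBS1 (thrombospondin 1) at −1.75 (standard error 0.0875). FGF2 was the other gene called lower, at −1.15, and F3, VEGFA, HPSE and FN1 were called higher, with log2 fold changes from 1.17 to 1.43. This list, too, was chosen with earlier results of these data known, so its direction is not independent evidence.

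Among the 13 NuRD subunits, the complex that NAB proteins recruit, 2 were called lower and 0 higher, with a median of 0.179. Over all tested genes, 9.64% were called lower and 11.8% higher. By edgeR's unadjusted p under 0.05, 7 subunits were higher, and DESeq2 called 0 higher. By the adjusted p alone, 7 were higher and 4 lower, against 29.5% and 28.4% of all tested genes. GATAD2A was at −1.67 (standard error 0.0826), MTA1 at −1.32 (standard error 0.0742), CHD3 at 0.87 (standard error 0.0594) and MBD3 at −0.48. CHD4, the subunit that NAB2 binds, was at 0.04 (standard error 0.0535). Of the NR4A partners and of the factors that share the EGR site, 5 of 6 were tested, and WT1, a zinc finger factor close to EGR1, was called lower at −1.01 (standard error 0.163), going from 366 ± 24.8 to 180.4 ± 43.4 normalized counts (SD, n = 3 each). SP1, RXRA and RXRB were at 0.43, −0.32 and 0.05 and were not called, and RXRG had 0 counts.

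**Figure D5:**
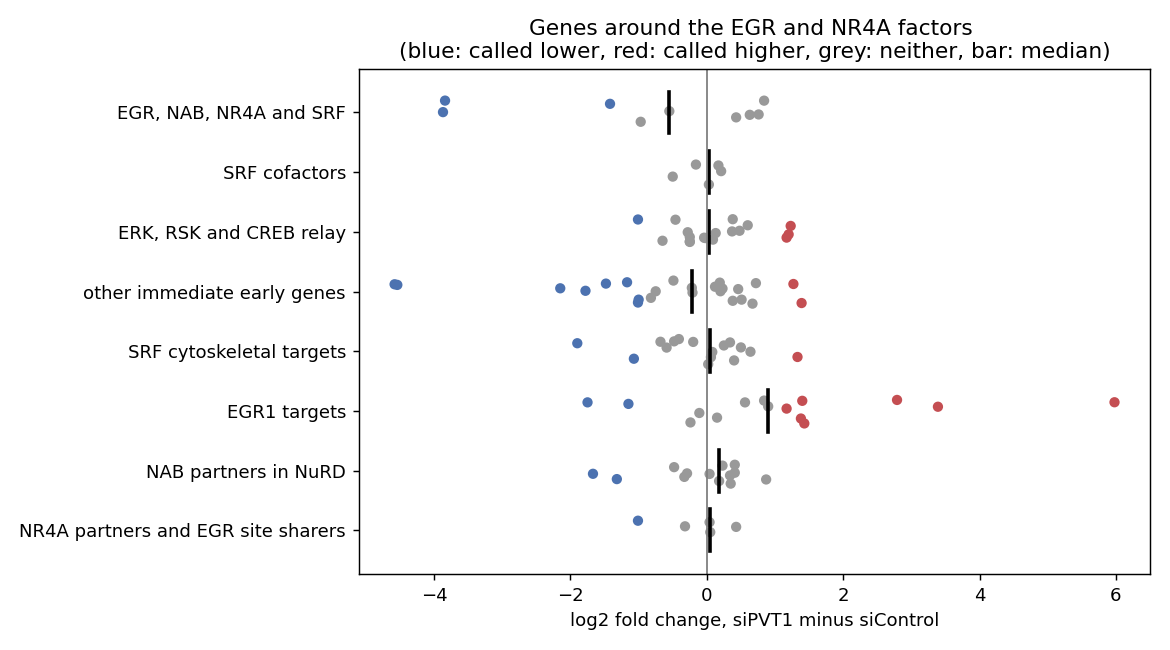
Log2 fold change of every tested gene in the members and in 7 lists of related genes. Blue points passed both thresholds as lower and red points as higher, and DUSP2 is drawn at its fitted value, which is no bound. Medians (bars) lie near 0 for 4 lists, at −0.22 for other immediate early genes and at 0.905 for EGR1 targets.

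The genes whose values over the 6 libraries were most like those of EGR1, by the root mean square distance of log2 CPM from the siControl mean among 13057 genes, were AL713998.1 (0.214), ID3 (0.218), EGR2 (0.254), ITGAM (0.262) and RPL41 (0.279). Another member was thus among the 5 nearest. ID3, an inhibitor of basic helix-loop-helix factors, had a log2 fold change of −3.73, and RPL41 has near-identical copies, among which reads may be divided. For NR4A1 the nearest were MLLT3 (0.0465), VAMP5 (0.0488), OTUB2 (0.053), EXOC4 (0.0549) and MINDY2 (0.0596), with log2 fold changes from 0.74 to 0.81. With 3 libraries in each group, these distances mostly reflect the difference between the groups.

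Calls among genes that share a promoter motif with a member are given beside those of all tested genes with a window. Among the members, the CArG box stood in windows of EGR1, EGR2 and SRF, and the CRE core in windows of EGR1, EGR2, EGR4, NAB1 and NR4A3. Among the members, the EGR motif stood only in windows of NAB1, NAB2 and SRF. Of 188 tested genes with a CArG box in a window, 8.51% were called lower and 11.7% higher (median log2 fold change 0.075), against 8.95% and 11.7% of the 11862 tested genes with any window (median −0.01). For the CRE core, 7.1% of 1592 genes were called lower and 8.67% higher, and for the EGR motif 6.01% of 1382 genes were called lower and 14.8% higher. These groups of genes were formed after the members' values were seen and were not tested.

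Overlapping genes could share reads with members, since the strand setting of the counting is not stated. NAB2 shares 69 exonic bases with STAT6 on the opposite strand, out of 2861. STAT6 was at 4432, 4521 and 4297 normalized counts in siControl and 3500, 3658 and 4081 in siPVT1, the opposite direction to NAB2. NR4A1AS, which shares 754 exonic bases with NR4A1, had 0 counts in all libraries. Other lncRNAs share 589 and 10 exonic bases with NAB1 and 164 with EGR3 on the opposite strand. A further lncRNA shares 145 exonic bases with EGR2 on the same strand. These lncRNAs were not found by name among the counted genes, so their levels were not checked.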

How the data were processed

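RNA sequencing of 6 SK-OV3 libraries was used, 3 per group, with groups and replicate numbers from the sample titles. The authors aligned single-end reads with STAR 2.7.3a to the GENCODE transcriptome of GRCh38.p13, quantified genes with Salmon 0.14.1 and deposited the estimated counts by gene symbol, unnormalized and in whole numbers (versions from the submitters' processing notes, which also list DESeq2 1.28.1 and bcl2fastq 2.20.0). Such estimates divide reads among similar transcripts.

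From these counts, genes with at least 5 normalized counts (TMM) in at least 3 libraries were kept, and edgeR 4.0.16 (R 4.3.3) was fitted on all 19008 of them with the siRNA as the only term. The standard error of a log2 fold change is its size divided by the root of its F statistic. The fits were tested on simulated data. Levels per kb use the Ensembl canonical transcript of GENCODE v44, which also gave gene positions, on the same GRCh38 build. Likeness to EGR1 and NR4A1 used a prior count of 2 and genes with a mean of at least 50 normalized counts in siControl. All members are named, with the 4 tested genes of each list that differed most, other called or well-known genes of the lists, and the 5 nearest genes. CHD4 and the uncalled immediate early genes were named after their values were seen, as was the spacing of promoter motifs. Members and lists were chosen with earlier results of these data known. DESeq2 1.42.0, other scalings and filters, the replicate block, the adjusted p alone and leaving out each library were the alternatives.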

Additional observations from a re-analysis of the deposited data

How the results depend on the processing

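No member changed direction under DESeq2, DESeq2's size factors, total count scaling, the unfiltered or filterByExpr gene set, the replicate block or without any 1 library. The adjusted p alone gave 5 members lower and 4 higher, in place of 3 and 0. It gave 33 pathway genes lower and 41 higher, in place of 16 and 13. Over all tested genes it gave 28.4% lower and 29.5% higher, in place of 9.64% and 11.8%. With 1 library left out, between 3 and 4 members and between 12 and 15 pathway genes (16 with all libraries) were called lower, and 0 members and between 12 and 14 pathway genes higher. EGR3 was the member whose call moved: it was called lower with total count scaling (−1.12), without siControl replicate 1 (−1.11), without siControl replicate 3 (−1.05) and without siPVT1 replicate 3 (−1.17). Total count scaling shifted the all-gene median from 0.001 to −0.148 on the log2 scale and the calls from 1833 lower and 2248 higher to 2355 and 1835. The replicate block gave 3 members lower and 0 higher and 16 pathway genes lower and 13 higher. Same-numbered libraries showed no shared deviation from their group means (r of −0.041, 0.0378 and 0.00366). With 3 libraries in each group this cannot show whether same-numbered libraries were made together. EGR4, and EGR2 in siPVT1, are limited by depth.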
